A study of Mus musculus with 21 samples.

Results

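The 36 genes described here encode contractile, calcium-handling and metabolic proteins of skeletal muscle. They were taken from a named list, and each was measured by 1 probe set, so no choice between probe sets of a gene arose. They stand among 19505 named genes and 22206 probe sets measured in 21 tumours, 1 per mouse, on Clariom S mouse arrays. By role the list holds 14 fast fibre genes, 4 slow fibre genes, 9 genes of structure shared by fibre types, 3 genes of calcium release and 6 metabolic genes.

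All 21 mice were female C57BL/6J, 5 to 6 weeks old, and carried Hepa1-6 cells, an established mouse hepatoma line, under the skin. They were assigned to an arm at a tumour volume of 200 mm3. The placebo arm (n = 6) received drug vehicle plus polyclonal IgG. The lenvatinib arm (n = 5) received 10 mg/kg by gavage every day; lenvatinib is an inhibitor of several receptor tyrosine kinases. The anti-PD1 arm (n = 5) received 10 mg/kg of the antibody clone J43 into the peritoneum every 3 days, 5 doses in all, and the combination arm (n = 5) received both agents. Tumours were collected on day 13; the final gavage had been given 2 h earlier and the final antibody injection 1 day earlier. RNA was extracted from 30 mg of each. The model is a line grown outside the liver, and the labels call every piece a tumour sample without recording what host tissue it held.

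As background, a muscle fibre shortens when myosin heads in the thick filament pull on thin filaments of actin. Calcium released from the sarcoplasmic reticulum starts this step by binding troponin on the thin filament. Fast fibres and slow fibres build the same machine from different paralogs of myosin, troponin and the calcium pump, and fast fibres rely more on glycogen and phosphocreatine for fuel. Mouse skin lies over a thin sheet of striated muscle, the panniculus carnosus, and over the muscles of the body wall. In bulk RNA from a piece of tissue, fewer cells of a type and less RNA per cell cannot be told apart.

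Levels are deposited log2 signals. A member was counted as above background on an array when it exceeded the 95th percentile of that array's 5222 negative control rows, a limit that lay between 7.04 and 7.78. On 6 arrays (mouse 1 of the combination and of the anti-PD1 arm, mice 1 and 2 given lenvatinib, mice 4 and 6 given placebo) the hybridization controls were brighter, at 11.2 to 11.6 against 10.09 to 10.70 elsewhere, and the values were less spread, with an interquartile range of 2.41 to 2.82 against 3.00 to 3.25. Signals of different genes come from different probes, so levels are compared between mice and not between genes.

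The muscle genes differed widely between individual tumours of the same arm. Most of them were high in placebo mice 1 and 5, lenvatinib mouse 4, anti-PD1 mouse 2 and combination mouse 2. Some were raised to a middle level in placebo mouse 3 and lenvatinib mouse 2. The mean of the 36 genes, each centred on its own mean over the 21 mice, stood at 3.93 in combination mouse 2, 3.03 and 2.96 in placebo mice 1 and 5, 2.69 in lenvatinib mouse 4 and 2.27 in anti-PD1 mouse 2. It was 0.61 in placebo mouse 3 and 0.42 in lenvatinib mouse 2. The score was above 0 in 7 of 21 mice (3 of 6 placebo, 2 of 5 lenvatinib, 1 of 5 anti-PD1 and 1 of 5 combination), and the lowest value was -1.42, in anti-PD1 mouse 4. Every arm therefore held tumours at both ends, and the arms overlapped.

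**Figure D1:**
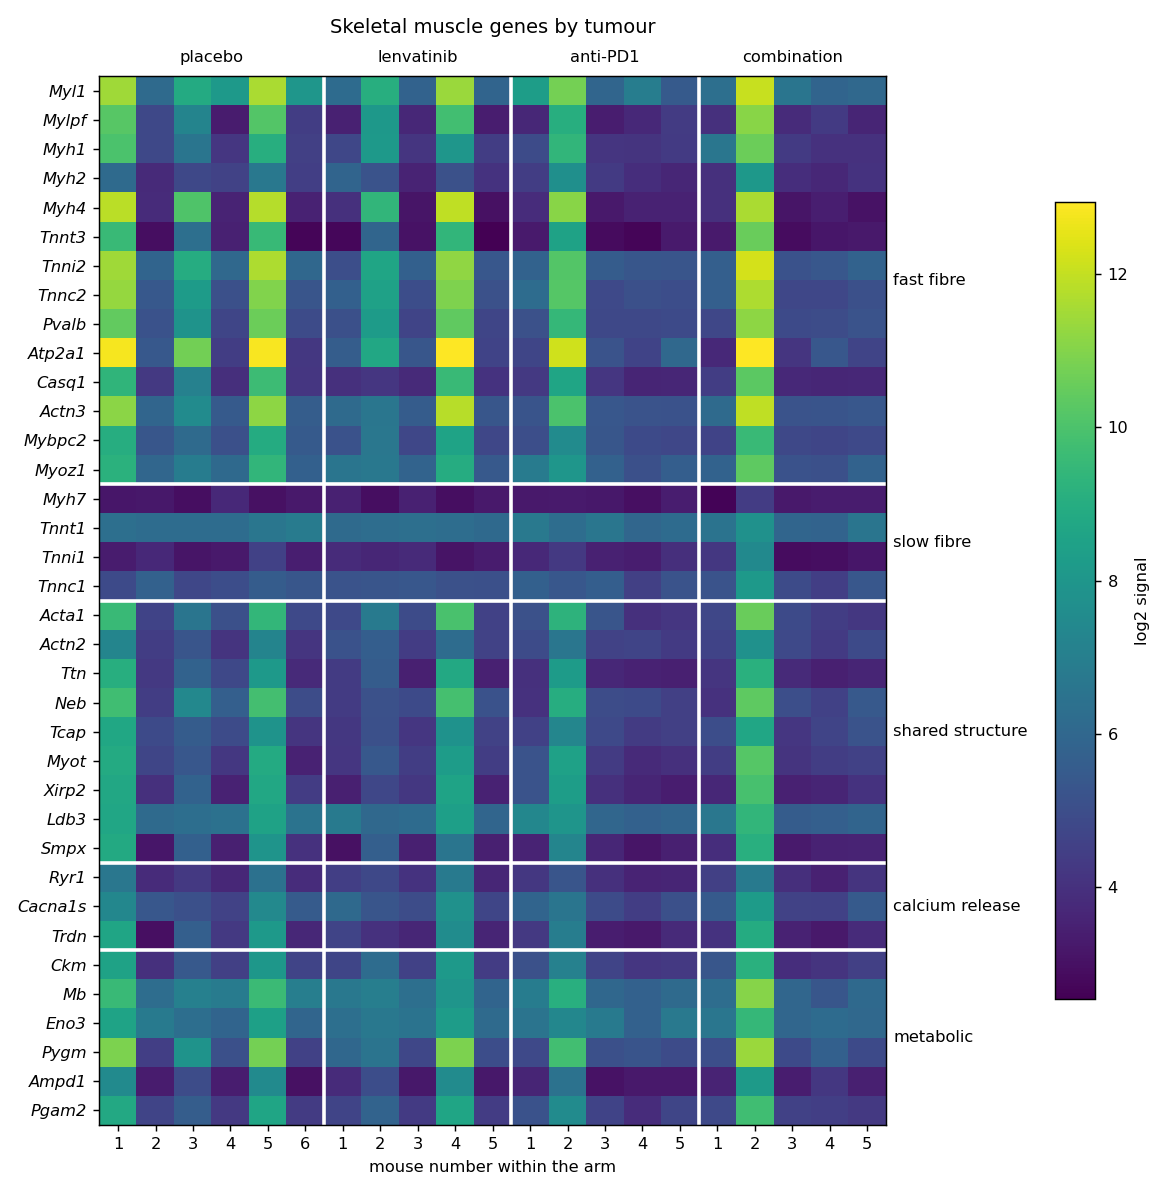
Log2 signal (colour) of the 36 muscle genes (rows, grouped by role) in each of the 21 tumours (columns, by arm and mouse number). Placebo mice 1 and 5, lenvatinib mouse 4, anti-PD1 mouse 2 and combination mouse 2 are bright in most rows outside the slow fibre genes, and among the slow fibre genes combination mouse 2 alone stands out.

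Above the background limit stood 34 of 36 members in combination mouse 2, 27 in placebo mice 1 and 5 each, 26 in lenvatinib mouse 4 and 21 in anti-PD1 mouse 2. The count was 8 in lenvatinib mouse 2, 7 in placebo mouse 3, 2 in anti-PD1 mouse 1, 1 in placebo mice 4 and 6 each, and 0 in the other mice. The median over mice was 0 of 36. With the 99th percentile as the limit the counts ran from 0 to 22. Ranked with values under the limit included, all 32 members that are not slow fibre genes had placebo mouse 1, placebo mouse 5, lenvatinib mouse 4, anti-PD1 mouse 2 and combination mouse 2 among their 7 highest tumours. Combination mouse 2 held the highest value of 33 of 36 members, among them Myh7 and Ryr1, which did not pass the limit there; Myh4 and Atp2a1 peaked in lenvatinib mouse 4 and Tcap in placebo mouse 1.

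The spread was large for these arrays. The SD over the 21 mice had a median of 1.98 over the members and of 0.40 over all tested probe sets. Members made up 6 of the 20 probe sets of largest SD, 14 of the first 50 and 25 of the first 200. Atp2a1, the calcium pump of fast fibres, reached 12.93 in lenvatinib mouse 4, was above the limit in 7 of 21 tumours and fell to 3.73 in combination mouse 1, which is inside the background. The share of a member's variance that lay between the arm means had a median of 5.64%, from 1.14% for Myh2 to 9.90% for Myl1, and its median over all tested probe sets was 12.6%.

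The myosin heavy chains are the motors of the thick filament, and Myh4, Myh1 and Myh2 encode the fast types IIB, IIX and IIA. Myh4 stood at 11.85, 3.84, 10.07, 3.57, 11.78 and 3.55 in placebo mice 1 to 6, and at 3.99, 9.40, 3.15, 11.94 and 3.02 in lenvatinib mice 1 to 5. It stood at 3.87, 11.10, 3.27, 3.54 and 3.55 in anti-PD1 mice 1 to 5 and at 4.00, 11.63, 3.12, 3.42 and 3.05 in combination mice 1 to 5. The values fell into a high range of 9.40 and above and a low range of 4.00 and below, with nothing between, and each arm held tumours in both. Myh1 was above the limit in 6 of these 7 tumours, at 10.00 and 9.04 in placebo mice 1 and 5, 10.62 in combination mouse 2, 9.37 in anti-PD1 mouse 2, and 8.13 and 8.0 in lenvatinib mice 2 and 4. In the exception, placebo mouse 3, it was at 6.59. Myh2 passed the limit in 2 tumours, at 8.08 in combination mouse 2 and 7.71 in anti-PD1 mouse 2. In the other tumours, lenvatinib mouse 4 with the highest Myh4 included, Myh2 lay at 6.71 or below and under the limit. Myh1, Myh2, Myh4 and the perinatal gene Myh8 are near-identical paralogs that lie side by side in the genome, so their signals may be shared between probe sets, and this was not tested.

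Of the fast light chains, which clasp the myosin neck, Mylpf passed the limit in the same 6 tumours as Myh1: 10.22 and 10.14 in placebo mice 1 and 5, 11.07 in combination mouse 2, 9.06 in anti-PD1 mouse 2, and 8.09 and 9.78 in lenvatinib mice 2 and 4. It was 7.22 in placebo mouse 3 and between 3.35 and 4.78 in the remaining tumours. Myl1 parted from Mylpf in 3 further tumours, with 8.16 and 7.99 in placebo mice 4 and 6 and 8.34 in anti-PD1 mouse 1, where Mylpf was at 3.35, 4.44 and 3.68. These 3 tumours are among the 6 with bright controls, and their adipocyte scores of 2.43, 1.96 and 2.39 (mean of 10 centred genes) are among the 6 highest; the part of either in the Myl1 signal was not tested. The fast myosin-binding protein Mybpc2 ranged from 4.62 in combination mouse 1 to 9.57 in combination mouse 2.

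Fast troponin consists of the calcium sensor Tnnc2, the inhibitory subunit Tnni2 and the tropomyosin-binding subunit Tnnt3. Tnni2 stood at 11.44, 5.90, 8.99, 6.03, 11.67 and 6.02 in placebo mice 1 to 6 and at 5.04, 8.66, 5.72, 11.22 and 5.35 in lenvatinib mice 1 to 5. It stood at 5.79, 10.14, 5.56, 5.33 and 5.30 in anti-PD1 mice 1 to 5 and at 5.67, 12.27, 5.18, 5.36 and 5.81 in combination mice 1 to 5. Every arm overlapped every other, since each held at least 1 tumour above 10 and several near 5 to 6. Tnnc2 reached 11.66 and Tnnt3 10.54 in combination mouse 2, and their lowest values were 4.74 in combination mouse 3 and 2.54 in lenvatinib mouse 5. The slow partners of these subunits behaved differently, as described below.

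Fast fibres clear and store calcium with the pump Atp2a1, the cytosolic buffer Pvalb and the reticulum buffer Casq1. Atp2a1 was at 12.78, 10.72 and 12.85 in placebo mice 1, 3 and 5, 12.92 in combination mouse 2, 12.19 in anti-PD1 mouse 2, and 8.75 and 12.93 in lenvatinib mice 2 and 4. In the tumours at middle level, placebo mouse 3 and lenvatinib mouse 2, Pvalb was above the limit at 7.90 and 8.23, and Casq1 was under it at 7.10 and 4.18. The brightest values of Atp2a1 lie near the array maximum of 13.26 to 13.51, where differences between tumours may be compressed. The fast Z-disc genes Actn3 and Myoz1, an actin crosslinker and a calcineurin-binding protein, peaked at 11.95 and 10.35 in combination mouse 2.

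Among the genes of structure shared by fibre types, Acta1 encodes the skeletal alpha-actin of the thin filament. It stood at 9.58, 4.62, 6.60, 5.09, 9.44 and 4.85 in placebo mice 1 to 6 and at 4.84, 6.78, 4.92, 9.94 and 4.55 in lenvatinib mice 1 to 5. It stood at 5.11, 9.24, 5.28, 4.00 and 4.20 in anti-PD1 mice 1 to 5 and at 4.74, 10.57, 4.89, 4.41 and 4.24 in combination mice 1 to 5. The same 5 tumours were highest, at 9.24 and above, and the other tumours lay under the limit. Ttn, the spring that spans from the Z-disc to the middle of the sarcomere, reached 9.07 in placebo mouse 1 and 9.14 in combination mouse 2, and Neb, which runs along the thin filament, reached 9.75 and 10.37 there. Both genes passed the limit in the same 5 tumours as Acta1.

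The rest of this group sits at the Z-disc or at membrane attachments. Tcap, which caps titin, was highest in placebo mouse 1 at 8.73, with 8.70 in combination mouse 2. Myot and Xirp2 were highest in combination mouse 2 at 10.20 and 9.89 and lay at 8.88 and 8.78 in placebo mouse 1. Smpx ranged from 3.03 in lenvatinib mouse 1 to 9.09 in combination mouse 2, Ldb3 from 5.56 to 9.37, and Actn2 from 4.11 to 7.81. They passed the limit in 3, 6 and 1 of 21 tumours.

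Calcium release starts at the voltage sensor Cacna1s, which opens the release channel Ryr1, and Trdn anchors the channel to its store. Trdn passed the limit in 3 tumours, combination mouse 2 (8.93) and placebo mice 1 and 5, and Cacna1s in 2, combination mouse 2 and lenvatinib mouse 4. Ryr1 lay between 3.48 and 6.83 and was above the background limit in 0 of 21 tumours, so its order over tumours is not read here. The score of the 3 genes, which includes values under the limit, was 2.96, 2.51, 2.36 and 2.28 in combination mouse 2, placebo mouse 1, lenvatinib mouse 4 and placebo mouse 5, and 1.22 in anti-PD1 mouse 2.

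Of the metabolic genes, Ckm encodes the muscle creatine kinase that regenerates ATP from phosphocreatine. It stood at 8.52, 3.96, 5.46, 4.49, 8.04 and 4.66 in placebo mice 1 to 6 and at 4.72, 6.20, 4.55, 8.17 and 4.40 in lenvatinib mice 1 to 5. It stood at 5.12, 7.12, 4.67, 4.17 and 4.25 in anti-PD1 mice 1 to 5 and at 5.33, 9.13, 3.92, 4.10 and 4.50 in combination mice 1 to 5. Ckm passed the limit in placebo mice 1 and 5, lenvatinib mouse 4 and combination mouse 2; the value of 7.12 in anti-PD1 mouse 2 lay under it. The glycogen phosphorylase Pygm reached 11.39, the glycolytic mutase Pgam2 9.76, the enolase Eno3 9.45 and the AMP deaminase Ampd1 8.21 in combination mouse 2. Mb, the oxygen store myoglobin, which is more abundant in oxidative fibres, was 11.03 in combination mouse 2, 9.60 and 9.61 in placebo mice 1 and 5, 9.11 in anti-PD1 mouse 2 and 7.98 in lenvatinib mouse 4. For Mb lenvatinib mouse 4 thus lay well below the placebo mice, to which it was close for Pygm (10.89 against 10.88 and 10.76).

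The 4 slow fibre genes did not follow this pattern. Tnni1, the slow inhibitory troponin, was 7.49 in combination mouse 2, and the next values were 4.53 in placebo mouse 5, 4.25 in anti-PD1 mouse 2 and then 4.22 in combination mouse 1; all values but the first lay under the limit. In placebo mouse 1 and lenvatinib mouse 4, where Tnni2 was 11.44 and 11.22, Tnni1 was at 3.35 and 3.07. Tnnc1, the slow calcium sensor, was 8.18 in combination mouse 2 and between 4.46 and 5.75 in the other tumours. Tnnt1, the slow tropomyosin-binding subunit, was 7.80 in combination mouse 2 and between 5.84 and 6.87 elsewhere. Myh7, the slow myosin, was 4.38 in combination mouse 2 and between 2.63 and 3.73 elsewhere. Combination mouse 2 was thus the highest tumour for all 4. Tnni1, Tnnc1 and Tnnt1 passed the background limit in 1 of 21 tumours each, and Myh7 passed it in 0, so its level in combination mouse 2 is not a detected signal by this limit.

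**Figure D2:**
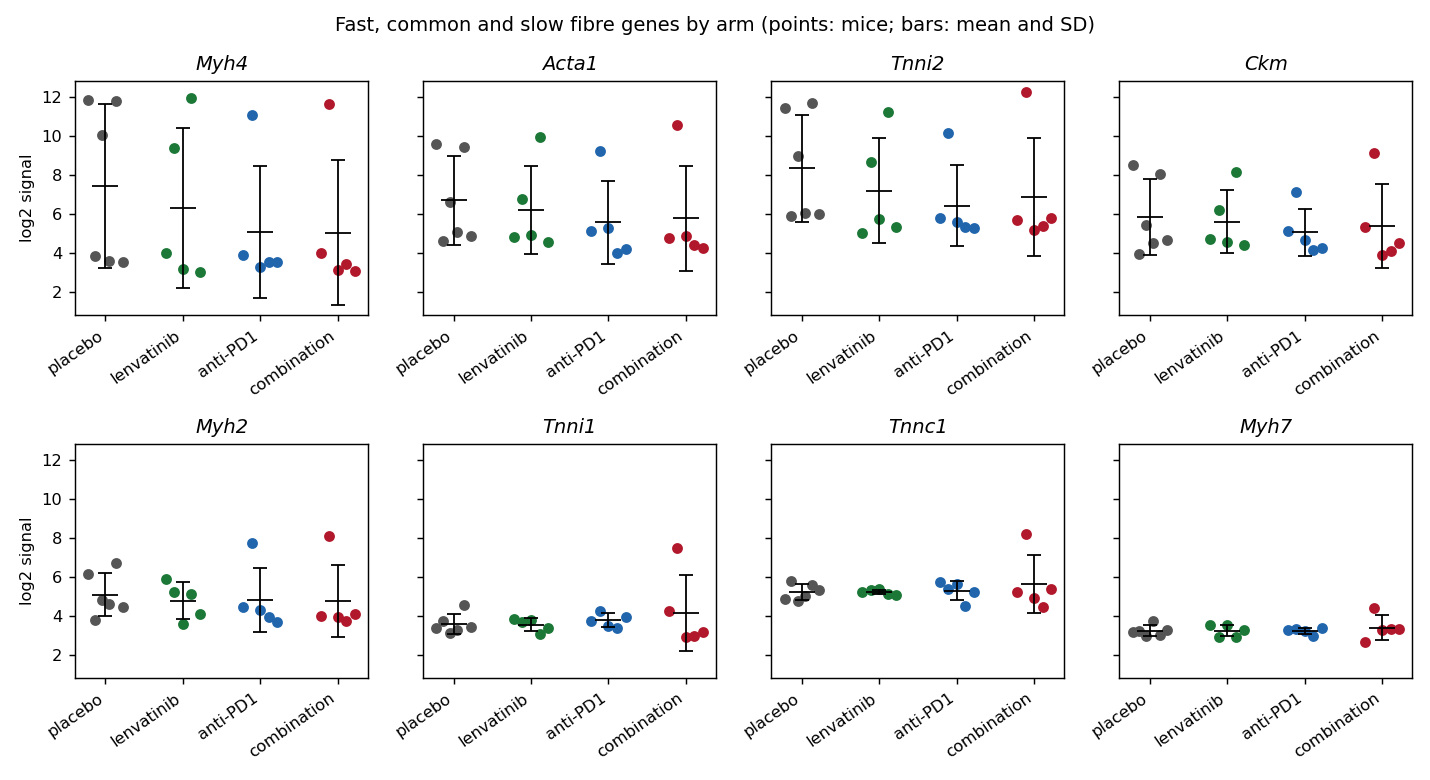
Log2 signal of 8 muscle genes by arm; points are mice, long bars are arm means and short bars the SD (placebo n = 6, other arms n = 5). Myh4, Acta1 and Tnni2 have tumours above and below the background limit within each arm, Ckm passes it in 4 tumours and Myh2 in 2; Tnni1 and Tnnc1 pass it in 1 tumour, combination mouse 2, and Myh7 in 0.

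Fast and slow genes were set against each other within each tumour as the mean of the 14 centred fast genes minus the mean of the 4 centred slow genes. The difference was 4.21 in placebo mouse 1, 4.03 in lenvatinib mouse 4, 3.72 in placebo mouse 5, 3.05 in anti-PD1 mouse 2, 2.42 in combination mouse 2, 1.78 in placebo mouse 3 and 1.26 in lenvatinib mouse 2. The remaining tumours lay between -1.81 and -1.23. Combination mouse 2 had the highest fast score, 4.70, and also the highest slow score, 2.28, where the next slow score was 0.26 in placebo mouse 5. Placebo mouse 1 and lenvatinib mouse 4 had fast scores of 3.96 and 3.69 and slow scores of -0.25 and -0.34. Outside combination mouse 2 the slow scores rest on values under the background limit. By arm the difference averaged -0.64 ± 1.72 (SD, n = 5) with both agents and -0.60 ± 2.05 (SD, n = 5) with the antibody alone. It averaged 0.12 ± 2.51 (SD, n = 5) with lenvatinib alone and 0.93 ± 2.65 (SD, n = 6) with placebo, so the arm means lay closer together than the tumours of any arm. With each gene divided by its SD, combination mouse 2 moved to -1.60, the lowest of all mice, because the slow genes then carry the weight of the fast ones, and lenvatinib mouse 4 was highest at 2.00.

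**Figure D3:**
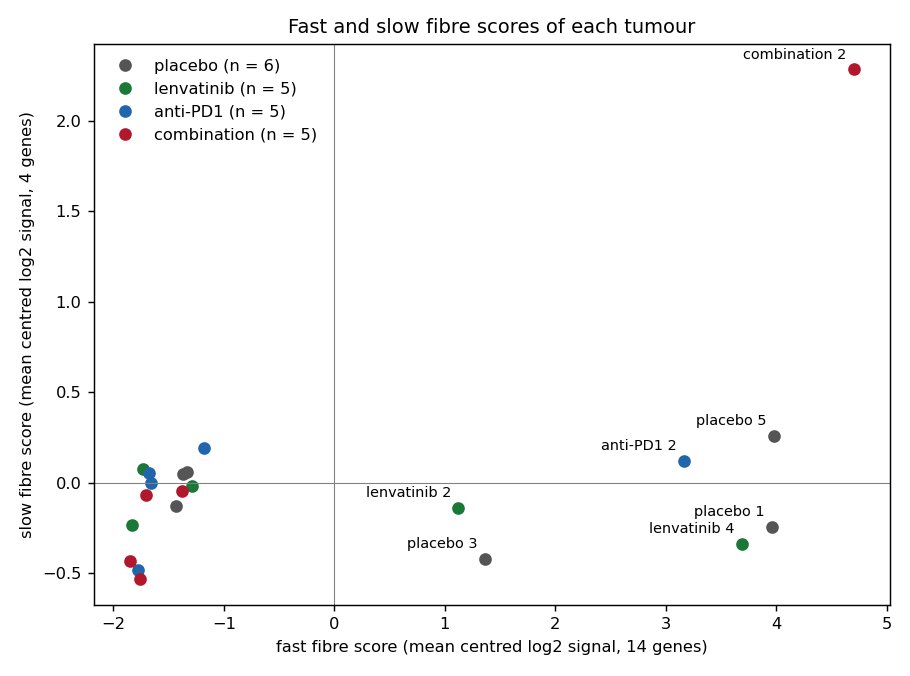
Each tumour by its fast fibre score (14 genes, x axis) and slow fibre score (4 genes, y axis), both means of centred log2 signals; colours are arms. Combination mouse 2 lies at 4.70 and 2.28, and the other 20 tumours have slow scores between -0.53 and 0.26 whatever their fast score.

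How far members rose and fell together was described by the Pearson r of each with the mean of the other 35 over the 21 mice. Its median was 0.972, and 31 of 36 members exceeded 0.9. The 32 members outside the slow group ran from 0.86 for Myh2 to 0.99 for Tnnt3, and the 4 slow genes from 0.16 for Myh7 to 0.54 for Tnni1. Without combination mouse 2 the slow genes ran from -0.33 to 0.26 and the others from 0.81 to 0.99. Each slow gene passed the background limit in 1 or 0 of 21 tumours, so the low r of these genes rests mostly on background values. Deviations from the arm means also gave a median of 0.972, and the median Spearman rho was 0.82. The genes share arrays and a few tumours of high muscle signal, so these values are a description with n = 21.

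Outside the list, the genes whose values were most like the members' mean over the 21 mice were Klhl41 (r 0.986), Hrc, Mybpc1, Tpm2, Apobec2, Cmya5, Nrap, Klhl31, Ppp1r3a and Tmem38a (r 0.962). Klhl41 binds nebulin and Tpm2 is a tropomyosin of the thin filament; Hrc and Tmem38a are proteins of the sarcoplasmic reticulum, and Ppp1r3a directs a phosphatase to muscle glycogen. Klhl41 was 8.5 in combination mouse 2, 8.09 and 7.80 in placebo mice 1 and 5, 7.13 in anti-PD1 mouse 2 and 7.09 in lenvatinib mouse 4. In all, 39 of 19469 other named genes had r over 0.9, 149 over 0.7 and 0 under -0.7. The lowest r belonged to B3galt5, Fam205a2, Gnb3, Zfp784 and Rps3a1, at -0.63 to -0.60.

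Because most members moved together, the bases before their starts are shown for 3 genes that did, Acta1, Ckm and Myh4. They are also shown for the slow genes Tnnc1 and Myh7. These slow genes passed the background limit in 1 and 0 of 21 tumours. Whether they moved with the others in the remaining tumours therefore cannot be read. The sequences are the 250 bases upstream of the RefSeq start, 5′ to 3′ on the gene's strand, from build GRCm38.p6. Acta1 is chr8:123894776-123895025 on the minus strand, Ckm chr7:19410844-19411093 on the plus strand, Myh4 chr11:67237562-67237811 on the plus strand, Tnnc1 chr14:31208062-31208311 on the plus strand and Myh7 chr14:54994627-54994876 on the minus strand. Capitals mark the motifs searched on both strands: the E-box CANNTG, bound by myogenic factors, its form CAGCTG, the MCAT element CATTCC, the TATA box TATAAA, the MEF2 site and the CArG box.
Acta1: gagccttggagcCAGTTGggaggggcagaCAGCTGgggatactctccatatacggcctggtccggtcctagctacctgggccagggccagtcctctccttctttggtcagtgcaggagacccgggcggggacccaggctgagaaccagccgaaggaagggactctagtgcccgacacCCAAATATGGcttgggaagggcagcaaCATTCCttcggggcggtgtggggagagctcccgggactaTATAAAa
Ckm: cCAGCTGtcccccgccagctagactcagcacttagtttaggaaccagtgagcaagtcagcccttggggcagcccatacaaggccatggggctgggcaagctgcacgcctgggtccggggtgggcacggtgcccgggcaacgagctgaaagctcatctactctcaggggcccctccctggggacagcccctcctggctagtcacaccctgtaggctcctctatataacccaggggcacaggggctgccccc
Myh4: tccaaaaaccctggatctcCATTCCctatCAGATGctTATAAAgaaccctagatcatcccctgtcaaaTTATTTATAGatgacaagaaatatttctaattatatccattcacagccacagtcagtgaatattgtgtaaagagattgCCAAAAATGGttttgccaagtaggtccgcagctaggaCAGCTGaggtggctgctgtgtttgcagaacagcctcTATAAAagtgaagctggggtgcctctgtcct
Tnnc1: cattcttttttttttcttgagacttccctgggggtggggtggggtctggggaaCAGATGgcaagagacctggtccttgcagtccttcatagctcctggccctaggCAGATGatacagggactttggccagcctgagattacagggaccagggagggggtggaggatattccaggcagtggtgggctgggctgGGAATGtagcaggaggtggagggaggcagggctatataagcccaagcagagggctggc
Myh7: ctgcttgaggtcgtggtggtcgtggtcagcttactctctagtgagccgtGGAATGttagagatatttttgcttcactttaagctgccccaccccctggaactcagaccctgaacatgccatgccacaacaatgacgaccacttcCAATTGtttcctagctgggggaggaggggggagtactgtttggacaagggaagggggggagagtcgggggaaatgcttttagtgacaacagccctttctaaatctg

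A window was found for 27 of 36 members. The E-box CANNTG was in 21 of these 27 (77.8%) and in 66.0% of 27025 RefSeq promoter windows of the same length. Its form CAGCTG, also counted in the former, was in 11 (40.7%) against 12.8% of all. CATTCC was in 9 (33.3%) against 12.6%, the MEF2 site in 6 (22.2%) against 3.01%, TATAAA in 5 (18.5%) against 13.0% and the CArG box in 3 (11.1%) against 1.40%. The Acta1 window holds 1 CAGCTG, 1 CATTCC, 1 TATAAA and a CArG box. The Myh4 window holds a MEF2 site that overlaps 1 of its 3 matches to TATAAA, and also a CArG box. Neither CAGCTG nor CATTCC separated fast from slow genes: CAGCTG is also in the window of the slow gene Tnni1 and not in those of the fast genes Tnnc2, Mybpc2 and Myh1, and CATTCC is in those of Acta1, Myh4, Tnnc1 and Myh7. A match is only a string of letters, and these arrays did not measure binding.

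The arms were compared in limma fits over all 22206 probe sets with Benjamini-Hochberg adjustment. The test is moderated: the variance of each member between tumours is drawn toward a value estimated from all probe sets. No member passed an adjusted p of 0.05 in any of the 7 comparisons. Each array is a separate animal, so the p-values rest on the spread between animals. The standard error of a placebo comparison had a median of 1.14 over the members, from 0.23 for Myh7 to 2.13 for Myh4.

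Lenvatinib against placebo gave 0 of 36 members past the threshold, where 0% of all probe sets passed. At an unadjusted p under 0.05 it was 0 of 36, against 6.97% of all probe sets. The members' median difference was -0.65 (all probe sets -0.0064), and all 36 lay below 0. Myh4 differed by -1.14 ± 2.13 (SE; 95% interval -5.56 to 3.28; limma adjusted p = 0.928), Tnni2 by -1.14 ± 1.46 (adjusted p = 0.882) and Acta1 by -0.49 ± 1.29 (adjusted p = 0.953). Ckm stood at -0.25 ± 0.98, Tnni1 at -0.03 ± 0.56 and Myh7 at -0.0019 ± 0.23 (SE), each with an interval spanning 0. The smallest p was that of Mb, at -0.95 ± 0.87 (limma adjusted p = 0.817). The median moved to -0.09 without placebo mouse 1, -0.07 without placebo mouse 5 and -1.38 without lenvatinib mouse 4, so its size hung on single tumours.

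Anti-PD1 against placebo also gave 0 of 36, where 0% of all probe sets passed. At an unadjusted p under 0.05 the counts were 0 of 36 and 4.07% of all. The median difference was -1.08 (all probe sets -0.0020), with 34 below 0 and 2 above, both slow genes: Tnni1 at 0.19 ± 0.56 (SE) and Tnnc1. Tnni2 had the smallest p, at -1.92 ± 1.46 (SE; 95% interval -4.96 to 1.12; limma adjusted p = 1.00). Myh4 stood at -2.38 ± 2.13, Acta1 at -1.13 ± 1.29, Ckm at -0.79 ± 0.98 and Myh7 at -0.01 ± 0.23 (SE). The median was -0.55 without placebo mouse 1, -0.57 without placebo mouse 5 and -1.74 without anti-PD1 mouse 2.

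The combination against placebo gave 0 of 36, where 0% of all probe sets passed, and 0 of 36 against 2.31% at an unadjusted p under 0.05. The median difference was -0.82 (all probe sets -0.0036). The 4 slow genes lay above 0, with Tnni1 at 0.58 ± 0.56 (SE) and Myh7 at 0.16 ± 0.23, and the other 32 lay below. Myl1 had the smallest p, at -1.66 ± 1.28 (SE; 95% interval -4.33 to 1.01; limma adjusted p = 1.00), and Myh4 stood at -2.40 ± 2.13, Tnni2 at -1.49 ± 1.46, Acta1 at -0.93 ± 1.29 and Ckm at -0.46 ± 0.98. Without combination mouse 2 the median was -1.86, and Tnni1 turned to -0.26 and Myh7 to -0.09. Without placebo mouse 1 or 5 it was -0.21 or -0.33. These 3 comparisons share the placebo mice, so their common direction below 0 is not 3 independent observations.

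**Figure D4:**
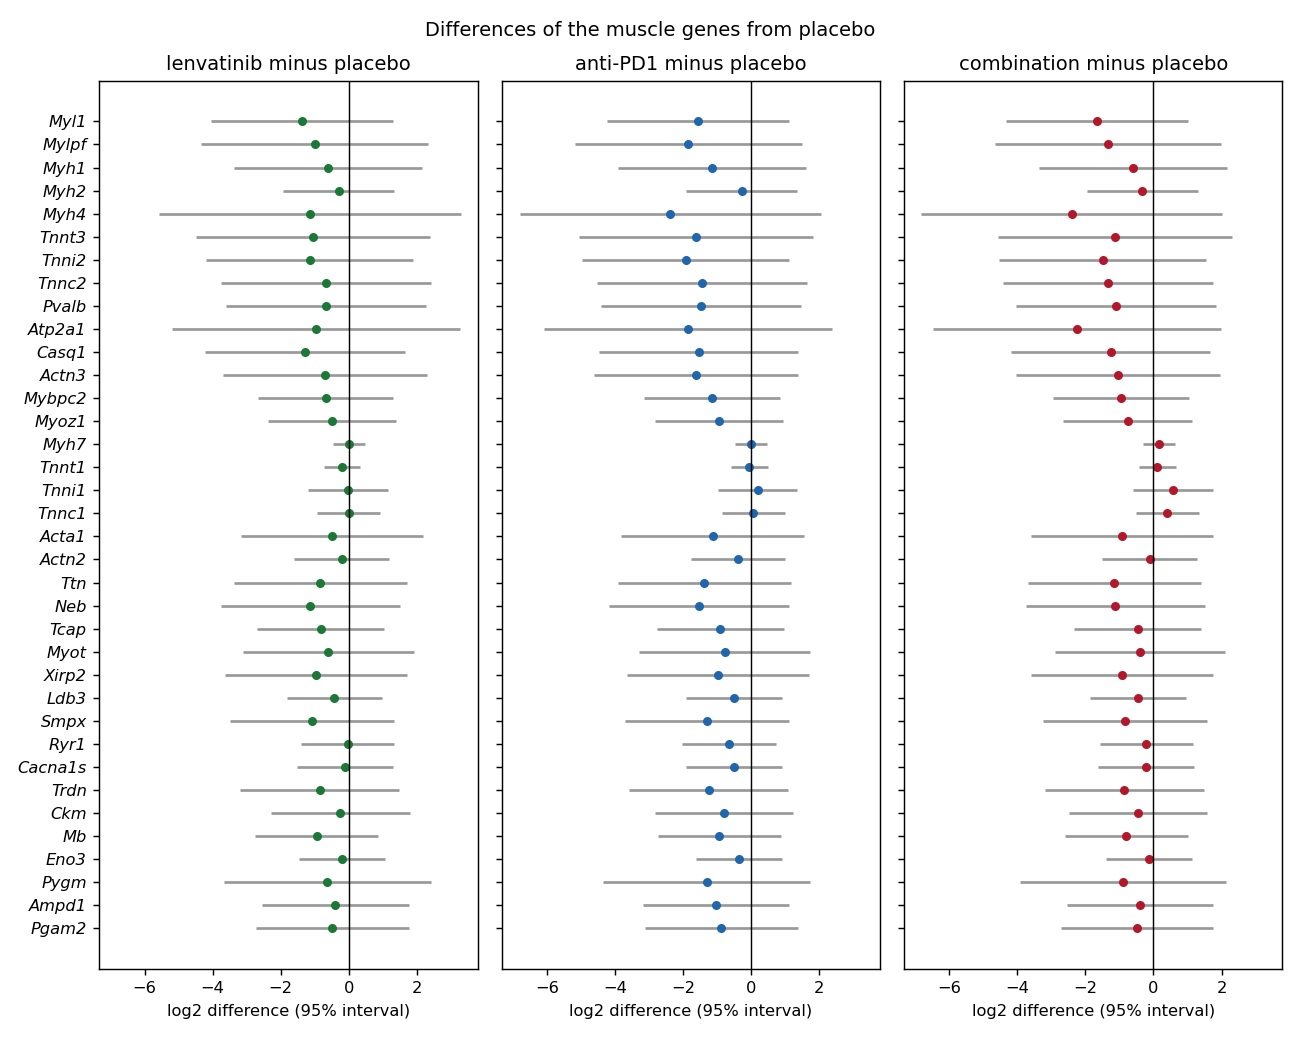
Log2 difference from placebo (points) of the 36 muscle genes with 95% intervals (bars) from the limma fit, 1 panel per treated arm (n = 5 each, placebo n = 6). Every interval crosses 0, and those of Myh4 and Atp2a1 are the widest, while those of Myh7 and Tnnt1 are the narrowest.

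Between the treated arms 0 of 36 members passed in each comparison, where 0% of all probe sets passed. At an unadjusted p under 0.05 the counts were 0 of 36 in each, against 6.4% of all probe sets for the combination against lenvatinib, 7.64% for the combination against anti-PD1 and 4.59% for lenvatinib against anti-PD1. The medians were -0.03, 0.31 and 0.40. In the combination against lenvatinib Myh4 stood at -1.26 ± 2.22 (SE) and Tnnt1, with the smallest p, at 0.31 ± 0.27 (limma adjusted p = 0.875). In the combination against anti-PD1 Myh4 stood at -0.02 ± 2.22 and Tnnc1 at 0.34 ± 0.46 (limma adjusted p = 1.00), and in lenvatinib against anti-PD1 Myh4 stood at 1.24 ± 2.22 and Ryr1 at 0.61 ± 0.69 (limma adjusted p = 0.962). Directions turned with single tumours: without combination mouse 2 the medians of its comparisons were -1.13 and -0.74, and without lenvatinib mouse 4 those of lenvatinib were 0.50 for the combination against it and -0.23 against anti-PD1.

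The interaction asks whether the combination differed from the sum of both single treatments. No member passed (0 of 36, where 0% of all probe sets passed), and 0 of 36 had an unadjusted p under 0.05, against 9.02% of all probe sets. The members' median was 1.00 (all probe sets -0.01) and all 36 lay above 0, with Tnnt1 at the smallest p, 0.37 ± 0.37 (SE; limma adjusted p = 0.882). Myh4 stood at 1.12 ± 3.07, Tnni2 at 1.57 ± 2.11 and Acta1 at 0.69 ± 1.86 (SE). The members move together, so their shared sign is not 36 independent observations.

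Other genes of the muscle apparatus were read from lists that do not overlap the 36. No gene passed in any of the 7 comparisons in the lists of other slow fibre genes (0 of 9), other contractile and Z-disc genes (0 of 18 measured), other excitation-contraction genes (0 of 12 measured) and other muscle metabolism genes (0 of 14). Of the 9 other slow genes, 6 were highest in combination mouse 2. Among these 6, also named after their values were seen, Casq2 and Myoz2 were under the limit in all tumours. Their peaks are therefore not detected signals, and Tpm3 passed the limit in 19 tumours. Myl2, the slow regulatory light chain, was 8.8 in combination mouse 2 and under the limit elsewhere. The 3 that peaked in other tumours, named after their values were seen, were Myh7b and Pln, both under the limit in all tumours, and the calcium pump Atp2a2, which was 9.73 in combination mouse 2 against a median of 10.02. Mybpc1, the slow myosin-binding protein, passed the limit in 3 tumours, at 9.3 in combination mouse 2 and 7.7 in placebo mouse 5 and anti-PD1 mouse 2. It was 7.32 in placebo mouse 1 and 7.59 in lenvatinib mouse 4, under the limit, and between 3.25 and 4.50 elsewhere. Mybpc1 was thus raised in all tumours where most members were high, and not in combination mouse 2 alone. The score of the 9 other slow genes was 2.16 in combination mouse 2 and 0.79 in anti-PD1 mouse 2. It was 0.43, 0.39 and 0.23 in placebo mouse 5, lenvatinib mouse 4 and placebo mouse 1, and -0.46 to -0.11 elsewhere. Tpm2 and the intermediate filament gene Des were also high in the tumours where Mybpc1 was raised, Des at 10.1 in combination mouse 2 and 9.7 in placebo mouse 1. Of the excitation-contraction genes, Hrc reached 9.7 in combination mouse 2. The kinase Mylk2 and most others of that list were under the limit in all tumours. Stac3, named after its values were seen, passed the limit in 7 tumours and was highest in anti-PD1 mouse 1. It passed in combination mouse 2 and in placebo mice 2, 4 and 6. It did not pass in placebo mice 1 and 5, lenvatinib mouse 4 or anti-PD1 mouse 2.

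Among developmental genes, Myh8 had the largest SD, 3.9, and went with Myh4: 12.4, 10.4 and 12.4 in placebo mice 1, 3 and 5, 9.7 and 12.5 in lenvatinib mice 2 and 4, 11.7 in anti-PD1 mouse 2, and also 12.4 in combination mouse 2. Tnnt2, the cardiac and embryonic troponin T, did not: it passed the limit in lenvatinib mouse 2 and in anti-PD1 mouse 5, where it was highest at 7.8. The embryonic myosin Myh3, named after its values were seen, stayed between 2.7 and 4.4. Of the myogenic factors, Mef2c, a transcription factor that is not restricted to muscle, was highest in combination mouse 4 at 9.81, a tumour with a muscle score of -1.34, and was 9.30 in combination mouse 2, 8.89 and 8.59 in placebo mice 1 and 5, 8.34 in anti-PD1 mouse 2 and 7.94 in lenvatinib mouse 4. Myf6, which is kept on in mature fibres, lay under the limit in all tumours, at 6.2 in combination mouse 2 and 4.27 in anti-PD1 mouse 2. Pax7, a marker of satellite cells, the stem cells of muscle, lay between 3.4 and 4.6, also under the limit, and was likewise named after its values were seen. The cardiac scores lay between -0.34 and 0.60, with the most variable genes of that list, Mybpc3 and Ryr2, at no more than 5.3 and 6.0. All 7 cardiac genes were under the limit in all tumours, so these scores rest on background values.

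Other tissues moved partly with the muscle genes, and their part in these values was not tested. The score of 10 adipocyte genes was 3.21 in anti-PD1 mouse 2 and 2.55 in placebo mouse 1, but 0.55 in combination mouse 2, 0.36 in placebo mouse 3, 0.05 in lenvatinib mouse 4, -0.70 in placebo mouse 5 and -1.60 in lenvatinib mouse 2. Adipocyte scores were also high in placebo mice 4 and 6, anti-PD1 mouse 1 and anti-PD1 mouse 4, at 2.43, 1.96, 2.39 and 1.98, where the muscle scores were -1.04, -1.05, -0.75 and -1.42. The brown fat score was 4.10 in placebo mouse 1, with Ucp1 at 11.4, and at most 0.67 in the other mice. Scores of the 9 hepatoma genes were lowest in anti-PD1 mouse 2 and placebo mouse 1, at -1.86 and -1.72, and were -0.45 in combination mouse 2, 0.42 in placebo mouse 5 and 1.06 in lenvatinib mouse 4. A high muscle score thus stood beside both low and high scores of tumour cell genes.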

How the data were processed

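Clariom S arrays of 21 tumours were read from the authors' deposited log2 values, made with RMA and oligo per the submitters' processing notes, without versions. RMA normalizes between arrays, so levels are relative. Genome build and annotation: not given in the sources used here. Of 29129 rows, 6923 controls were left out. Names came from the platform annotation (19572 probe sets with 1 symbol, 0 with several, 2634 unnamed here). Mice were grouped by treatment label.

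The members and gene lists were chosen with earlier results of these data known. All 22206 probe sets were fitted with limma 3.58.1 in R 4.3.3 (4 arm means, Benjamini-Hochberg, threshold 0.05), after a check on simulated data. Scores are means of centred log2 values and were not tested. All members could be named; differences are given for Myh4, Myh7, Ckm, Acta1, Tnni1, Tnni2 and the smallest p in each direction. Non-members are the 10 most and 5 least like by r, and per list the 2 of largest SD. Alternatives are in the closing section.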

Additional observations from a re-analysis of the deposited data

Results flagged for a closer look

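In the combination arm, mouse 2 stood apart from the other 4 mice. The gap to the nearest mouse, as a share of the arm's whole range, was 0.9204 for the score of all members, 0.9288 for fast fibre genes, 0.8259 for slow fibre genes, 0.9394 for shared structure, 0.785 for calcium release, 0.9009 for metabolic genes and 0.8997 for fast minus slow; with 5 samples Dixon's critical value is 0.710. Single genes gave 0.8899 for Myh4, 0.729 for Ckm, 0.8977 for Acta1, 0.7109 for Tnni1 and 0.911 for Tnni2. The rule marked 32 of 36 members in all, and the share of all probe sets that mark this mouse was not computed. Combination mouse 2 was the only tumour with Tnni1, Tnnc1 and Tnnt1 above the background limit.

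In the anti-PD1 arm, mouse 2 stood apart in the same way, with 0.8172 for all members, 0.8806 for fast fibre genes, 0.8229 for shared structure, 0.7887 for metabolic genes and 0.9073 for fast minus slow. Myh4 gave 0.9234, Acta1 0.756 and Tnni2 0.8983. The rule marked 21 of 36 members in all, again without the share of all probe sets that mark this mouse. Mouse 4 of this arm was the lowest for the slow fibre score, at 0.7122, with a score of -0.48. All 4 slow genes lay under the background limit in every anti-PD1 tumour, so this last flag ranks background values only.

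In the lenvatinib arm 7 of 36 members, among them Casq1, Actn3 and Neb, set mouse 4 apart as the highest. Chance marks about 1 in 20 groups by this measure if values are normally distributed, which Myh4, with a high and a low range, was not. Members that move together are marked together. The share of all probe sets that mark the same mice was not computed. The counts of members therefore do not show whether a mouse stood apart more for these genes than over the whole array. The tumours were marked by their muscle values, so the high muscle signal of all but anti-PD1 mouse 4 follows from the rule.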

How the results depend on the processing

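The count of members past the threshold was 0 in all 7 comparisons and under each of the 30 settings tried, or 29 for the interaction: a filter that kept 28 of 36 members, another variance model, cyclic loess, array weights, only the arms compared, a looser threshold of 0.1, removal of the 6 arrays with bright controls, a term for the hybridization controls, and each mouse left out. The smallest adjusted p of any member under any setting was 0.326. The members' median was followed under 24 settings only: cyclic loess, removal of the 6 bright arrays, each mouse left out, and averaging of a gene's probe sets. The last changes nothing, since each member has 1 probe set. Under these, differences between arms in the median moved by less than the within-arm SD of the score, 1.91. Those in the mean fast minus slow score, under 26 settings, also moved by less than its SD, 2.29. Array weights, the other variance model, the block by mouse number and the control term were not applied to either. Both SDs are larger than the differences themselves, so this measure does not show that a sign held. Against placebo both stayed below 0 under the settings applied to them, but between treated arms both turned sign. The fast minus slow difference ran from -0.80 to 0.87 in the combination against anti-PD1. It ran from -1.53 to 0.21 in the combination against lenvatinib and from -0.25 to 1.64 in lenvatinib against anti-PD1. The score of a single tumour moved by more than the SD: with genes divided by their SD, combination mouse 2 went from 2.42 to -1.60. The protein comparison of fast and slow paralogs was not run.

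The main fit did not pair samples by mouse number. Deviations from the arm means had a median correlation of 0.10 in 30 same-numbered pairs and -0.04 in 135 others. The correlation was over 0.1 in 15 of the 30 and in 48 of the 135, and whether mouse numbers pair the samples was not tested. With mouse number as a replicate block 0 members passed in every comparison, and Myh7 turned from -0.0019 to 0.0054 in lenvatinib against placebo.

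Signs of single members, none of which passed a test, turned in at least 1 setting for 34 of 51 named differences; beyond the settings named here the cause was not tested. With array weights Myh7 was 0.0325 in lenvatinib against placebo, 0.0557 in anti-PD1 against placebo and -0.0232 in lenvatinib against anti-PD1, and Myh4 was 1.28 and Atp2a1 0.80 in the combination against anti-PD1. With the control signal as a covariate Myh4 was 0.17 there. Cyclic loess gave Myh7 -0.0217 in lenvatinib against anti-PD1, and without the 6 bright arrays it was 0.14 and 0.11 in lenvatinib and anti-PD1 against placebo. In lenvatinib against placebo, leaving out 1 mouse at a time gave -0.89 to 0.29 for Ckm, -1.42 to 0.0861 for Acta1, -0.12 to 0.16 for Tnni1 and -0.0735 to 0.0973 for Myh7. In anti-PD1 against placebo, leaving out 1 mouse at a time gave -0.066 to 0.0899 for Myh7. In the combination against placebo, leaving out 1 mouse at a time gave -1.40 to 0.0725 for Ckm, -0.0918 to 0.34 for Myh7 and -0.26 to 0.89 for Tnni1. In the combination against lenvatinib, leaving out 1 mouse at a time gave -1.70 to 0.66 for Tnni2, -2.90 to 0.15 for Myh4, -1.15 to 0.43 for Ckm, -1.63 to 0.50 for Acta1, -2.96 to 0.0988 for Atp2a1, -0.0899 to 0.35 for Myh7, -0.23 to 0.92 for Tnni1 and -0.0072 to 0.48 for Tnnt1. In the combination against anti-PD1, leaving out 1 mouse at a time gave -1.67 to 1.49 for Myh4, -2.08 to 1.02 for Atp2a1, -0.99 to 1.12 for Acta1, -0.0825 to 0.35 for Myh7, -0.60 to 0.84 for Ckm, -0.45 to 0.70 for Tnni1, -0.92 to 1.36 for Tnni2 and -0.30 to 0.63 for Tnnc1. In lenvatinib against anti-PD1, leaving out 1 mouse at a time gave -0.0642 to 0.0837 for Myh7, -0.18 to 2.74 for Myh4, -0.0961 to 1.06 for Ckm, -0.29 to 1.56 for Acta1 and -0.23 to 1.70 for Tnni2. In the interaction, leaving out 1 mouse at a time gave -0.53 to 2.63 for Myh4, -0.0806 to 0.36 for Myh7, -0.36 to 1.22 for Ckm, -0.50 to 1.63 for Acta1 and -0.42 to 0.73 for Tnni1.

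With 5 or 6 mice per arm the number of arrays limits precision. Data were simulated like lenvatinib against placebo over 22206 probe sets, with 200 of them changed in each of 20 draws. In these, 57.8% of 2-fold and 93.4% of 4-fold changes were recovered at ordinary spread, which is below that of the members. False calls had a median of 0 per draw and reached 122 in the worst draw. Recovery at the spread of the members was not computed, so these shares do not apply to them. Most members lay under the background limit in most tumours, so low values carry no order.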

Other observations

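Other muscle metabolism genes did not all go with the 36. Cox8b, a cytochrome oxidase subunit of muscle and brown fat, was 12.01 in placebo mouse 1, 10.9 in combination mouse 2 and 10.4 in anti-PD1 mouse 2, but also 10.6 and 9.5 in placebo mice 6 and 4 and 10.5 in anti-PD1 mouse 1, whose muscle scores were -1.05, -1.04 and -0.75. Fabp3, a fatty acid carrier of oxidative muscle, was 10.0 in placebo mouse 1 and 9.4 in combination mouse 2, and under the limit in the other tumours. Placebo mouse 1 was thus the highest tumour for both, and it was also the tumour with Ucp1 at 11.4 and Cidea at 8.5.

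Among genes linked to muscle wasting, Mstn, which encodes the growth inhibitor myostatin, passed the background limit in 1 tumour, at 8.0 in placebo mouse 1. It was 7.6 in placebo mouse 5 and 6.7 in combination mouse 2, but 3.9 in anti-PD1 mouse 2, all under the limit. The ubiquitin ligase Trim63 was under the limit in all tumours. No gene of this list passed in any of the 7 limma comparisons (0 of 8); at an unadjusted p under 0.05 it was 1 of 8 in anti-PD1 against placebo, beside 4.07% of all probe sets, and 1 of 8 in the combination against lenvatinib, beside 6.4%.

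Epidermal genes had their highest score, 1.44, in lenvatinib mouse 2, with Dmkn at 10.1. Myl3, the other slow light chain, was named after its values were seen: it was 10.5 in combination mouse 2 and under the limit in the other tumours.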
